A study of Rattus norvegicus with 8 samples.

Results

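Cadherins, claudins and integrins are the membrane proteins by which cells hold to each other and to the matrix around them. The 72 genes described here are those in the expression table whose symbol is a cadherin (Cdh followed by a number), a claudin (Cldn followed by a number), an integrin alpha subunit (Itga) or an integrin beta subunit (Itgb followed by 1 digit). They are 23 cadherin, 23 claudin, 18 integrin alpha and 8 integrin beta genes out of 22228 named genes. The rule by symbol uses no measured value, but it was chosen with earlier results of these data known. The table holds RNA-seq values of 4 groups of rat cells made in culture, with 2 libraries in each, 8 in all, and follows them from pluripotent stem cells to cells resembling primordial germ cells, the founders of sperm and eggs.

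The ESC group are embryonic stem cells of strain Crlj:WI, grown on mouse embryonic fibroblast feeder cells in N2B27 medium with the MEK inhibitor PD0325901 at 1 µM, the GSK3 inhibitor CHIR99021 at 3 µM and rat LIF at 1000 U/ml. The EpiLC group are epiblast-like cells, made as floating aggregates of 4000 cells per well for 60 h in 1% KSR, a serum replacement, plus bFGF at 12 ng/ml and activin A at 20 ng/ml. The PGCLC_d3 group are germ cell-like cells after 3 days with BMP4 at 500 ng/ml, rat LIF at 1000 U/ml, SCF at 100 ng/ml and EGF at 50 ng/ml. The PGCLC_d3ag3 group are such cells 3 days after 5000 of them were aggregated with 50000 somatic cells of E15.5 female rat gonads depleted of c-KIT-positive cells, in N2B27 with 5% KSR. Both PGCLC groups were sorted for a Nanos3-T2A-tdTomato reporter, while the genotype label reads wild type for all 4 groups. With a sort on a reporter, a change within cells and a choice among cells cannot be told apart. In bulk RNA, fewer cells that carry a transcript and less of it per cell cannot be told apart either. Whether the libraries of a group are separate cultures is not in the labels, and p-values rest on a spread between libraries that may be technical.

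Classical cadherins bind the same cadherin on the next cell and are tied inside the cell to catenins and actin, which forms the adherens junction. Claudins seal the space between epithelial cells at tight junctions, and which claudins a cell makes sets what passes through. Integrins are pairs of an alpha and a beta subunit that bind matrix proteins such as laminin and fibronectin, and the pair decides the ligand. In the embryo, cells leaving the epiblast exchange some of these proteins for others, and primordial germ cells leave an epithelium, migrate and settle in the gonad.

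Levels are given as TPM, a share of all transcripts that corrects for gene length and so can be set side by side between genes. Changes are given on the log2(TPM+1) scale, where low genes change by less than their fold. Limma tested them with all 4 groups in one model, on the 13571 genes that reached 1 TPM in 2 or more libraries, and a gene was called higher or lower where p after Benjamini-Hochberg adjustment was below 0.05. Depth relative to the first ESC library was 1 to 1.37 in ESC, 1.16 to 1.49 in EpiLC, 1.14 to 1.32 in PGCLC_d3 and 2.17 to 2.38 in PGCLC_d3ag3, as estimated from the steps between low values. Libraries of one group correlated at a Pearson r of 0.9946 to 0.9975 across the tested genes, which are not independent replicates. Most defining markers were highest where the labels place them: Nanog was at least 911.7 TPM in ESC, Dnmt3b at least 2666 in EpiLC, Tfap2c at least 294 in both PGCLC groups and Dazl at least 763 in PGCLC_d3ag3. Against them, the germ cell marker Dppa3 was highest in ESC, at 1312 and 1306 TPM against 375 and 389 in PGCLC_d3, and the later germ cell marker Ddx4 was at 162 and 134 in EpiLC and 1.3 and 1.28 in PGCLC_d3. The epiblast marker Fgf5 was absent or nearly so in all 8 libraries, at 0.075 TPM or less.

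Of the 72 genes, 34 passed the filter on low values: 11 cadherins, 9 claudins, 9 integrin alpha and 5 integrin beta genes. The other 38 did not, with a highest single value of 1.07 TPM, and 6 of them were listed at 0 in every library. A gene that passed through 1 group alone had to differ between groups, and 7 of the 34 had TPM of at least 1 in only 1 group, or 20.6% against 7.13% of all tested genes. Of the tested members, 3 had their highest mean in ESC, 13 in EpiLC, 15 in PGCLC_d3 and 3 in PGCLC_d3ag3. Over all tested genes those shares were 21.7%, 20.9%, 32.9% and 24.4%. Members at a mean TPM of at least 1 numbered 16 in ESC, 24 in EpiLC, 29 in PGCLC_d3 and 21 in PGCLC_d3ag3. Counted per library over all named genes, those at 1 TPM or more were also most numerous in PGCLC_d3. They numbered 11350 and 11490 in ESC, 11879 and 11844 in EpiLC, 12217 and 12225 in PGCLC_d3, and 11812 and 11830 in PGCLC_d3ag3. All 34 tested members differed somewhere among the 4 groups (limma moderated F test), as did 96.3% of all tested genes, so that count says little about adhesion genes.

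**Figure D1:**
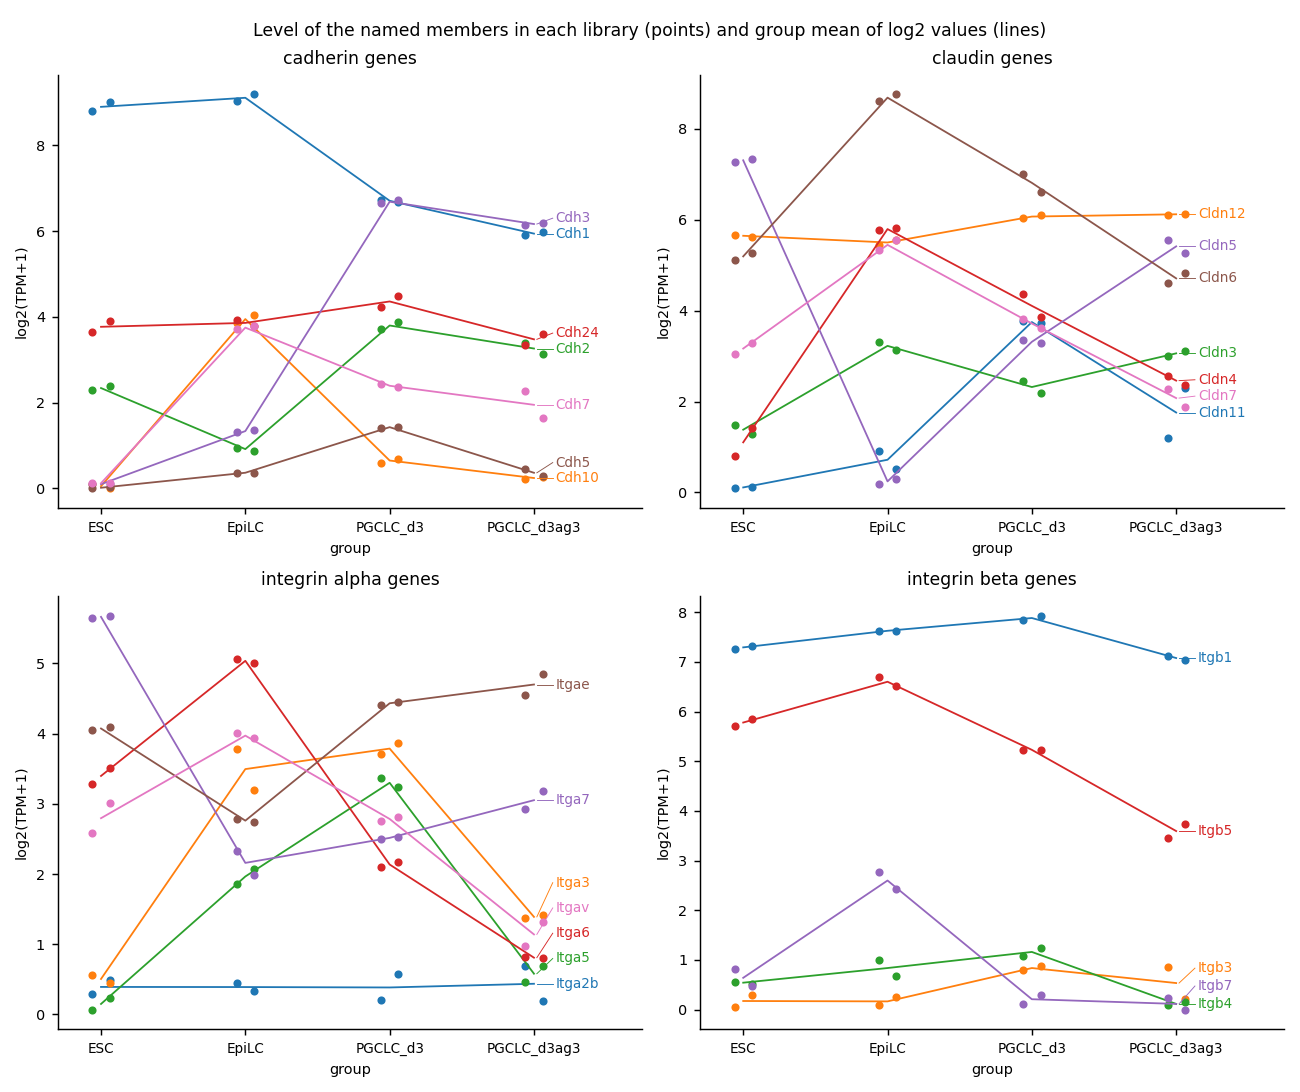
Levels of the named cadherin, claudin, integrin alpha and integrin beta genes as log2(TPM+1) on the vertical axis, with the 4 groups along the horizontal axis. Points are single libraries (2 per group) and lines join the group means. Cdh3 climbs from near 0 in ESC to about the level of Cdh1 in PGCLC_d3, Cldn5 drops in EpiLC and climbs again, and Itga7 and Itga6 cross between ESC and EpiLC.

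The direction of the calls changed from step to step. From ESC to EpiLC, 22 of the 34 tested members were called higher, where 35.4% of all tested genes were, and 5 lower, where 31.8% were. From EpiLC to PGCLC_d3, 18 were called higher (background 47.3%) and 13 lower (background 27.6%). From PGCLC_d3 to PGCLC_d3ag3 only 3 were called higher (background 25.7%) and 22 lower (background 44.8%). The median change of the members was 0.88, 0.34 and -0.84 at the 3 steps, beside 0.04, 0.21 and -0.18 for all tested genes. Consecutive steps share a group, so a high value in EpiLC or PGCLC_d3 counts in both steps that use it. The counts and medians include the 7 members that reached 1 TPM in only 1 group. These were Cdh10, Cldn2 and Itgb7 in EpiLC, Cdh4, Cdh5 and Cdh22 in PGCLC_d3, and Itga11 in ESC. Such genes were 20.6% of tested members and 7.13% of all tested genes, so part of the distance from the background was set by the filter. No count was made without them.

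The last 2 steps need their scale stated. Rescaling the libraries by the median of ratios took the median change of all genes from 0.211 to -0.016 for PGCLC_d3 against EpiLC, and from -0.178 to -0.004 for PGCLC_d3ag3 against PGCLC_d3. Member calls then stood at 13 higher and 13 lower for PGCLC_d3 against EpiLC, and at 6 higher and 22 lower for PGCLC_d3ag3 against PGCLC_d3. Quantile normalization gave 14 and 13 at the former step and 6 and 20 at the latter. Of all genes called, the share called higher moved from 63.2% to 49.2% for PGCLC_d3 against EpiLC under the median of ratios, and from 36.4% to 50% for PGCLC_d3ag3 against PGCLC_d3. A small change at these steps is thus no larger than the shift of all genes. The higher calls lost for PGCLC_d3 against EpiLC were Cdh13, Cdh24, Cldn9 and Itga7 under both rescalings, and Itgb1 under the median of ratios. For PGCLC_d3ag3 against PGCLC_d3, Cdh2 and Cdh10 lost their lower call under quantile normalization, and Cldn12, Itga1 and Itgae were called higher under both.

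**Figure D2:**
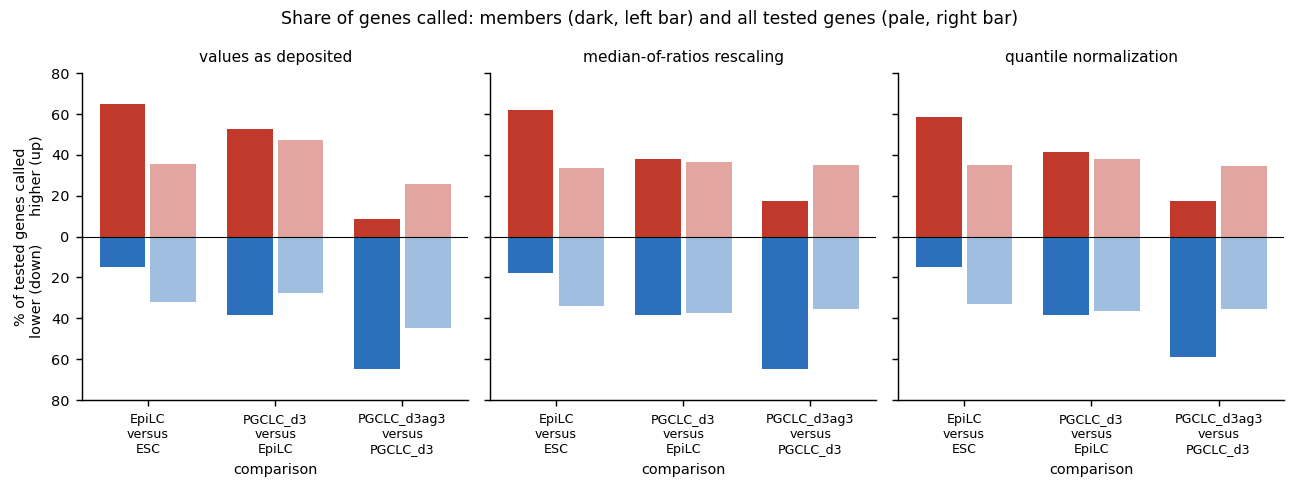
Percent of tested genes called higher (upward bars) and lower (downward bars) at each of the 3 consecutive steps, for the 34 tested members (dark) and all 13571 tested genes (pale). The 34 include 7 members that reached 1 TPM in only 1 group. Panels show the deposited values and each rescaling; under the deposited values members called lower at the last step outnumber those called higher by 22 to 3, and under both rescalings lower calls still outnumber higher ones.

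Among the cadherins the main change of place was between E-cadherin and P-cadherin. Cdh1 encodes E-cadherin, the adhesion protein of epithelia and of pluripotent cells. It stood at 442 and 514 TPM in ESC, 521 and 584 in EpiLC, 106 and 102 in PGCLC_d3, and 59.1 and 61.9 in PGCLC_d3ag3. Every ESC and EpiLC library lay far above every PGCLC library, and PGCLC_d3 lay above PGCLC_d3ag3 without overlap. The fall from EpiLC to PGCLC_d3 was -2.40 (SE 0.080, limma adjusted p = 5.1e-09) and a further fall to PGCLC_d3ag3 was -0.77 (SE 0.080, limma adjusted p = 2e-05). The rise from ESC to EpiLC was 0.21 (SE 0.080, limma adjusted p = 0.0393), and this call was lost under both rescalings, without the low-value filter, and without the first ESC, the second EpiLC or either PGCLC_d3 library (adjusted p = 0.0678 under the median of ratios).

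Cdh3, which encodes P-cadherin, a close relative of E-cadherin in placenta and basal epithelia, moved the other way. Its levels were 0.067 and 0.073 TPM in ESC, 1.49 and 1.56 in EpiLC, 99.6 and 104 in PGCLC_d3, and 70.0 and 71.5 in PGCLC_d3ag3. The groups did not overlap, and the jump fell between EpiLC and PGCLC_d3. That rise was 5.35 (SE 0.099, limma adjusted p = 2.1e-10), after an earlier one of 1.24 (SE 0.099, limma adjusted p = 2.3e-06) from ESC to EpiLC. In PGCLC_d3ag3 Cdh3 was lower by a smaller amount, -0.52 (SE 0.099, limma adjusted p = 0.00097), next to the larger fall of Cdh1.

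Markers of trophoblast and extraembryonic tissue, some of which also mark other epithelia, differed between the same groups. Their 7 genes summed to 444.9 and 417 TPM in ESC, 200.7 and 191 in EpiLC, 662 and 618 in PGCLC_d3, and 92.9 and 87.2 in PGCLC_d3ag3. In PGCLC_d3, 6 of the 7 reached 1 TPM in both libraries: Hand1 was at 53.6 and 53.4 and Gata3 at 7.24 and 6.21, while Tfap2a was at 0.277 or less. In PGCLC_d3ag3 Hand1 was at 0.051 and 0.517 and Gata3 at 0 and 0.332, and Cdh3 was at 70.0 and 71.5. Cdh3 was lower in PGCLC_d3ag3 than in PGCLC_d3, as were other members highest in PGCLC_d3. The log2 change was -0.52 for Cdh3 and -0.54 for Cdh2, and larger for Cldn11 (-1.99) and Itga5 (-2.72). Under quantile normalization Cdh3 kept its lower call (-0.46) and Cdh2 lost it (-0.18). Among the markers, Krt7 was higher in PGCLC_d3ag3, at 3.22 and 2.70 TPM, than in PGCLC_d3, at 1.85 or less. The part of trophoblast or extraembryonic cells in the PGCLC_d3 values was not tested.

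Within a library, where differences in scaling between libraries drop out, Cdh3 over Cdh1 was 0.000151 and 0.000143 in ESC, 0.00286 and 0.00267 in EpiLC, 0.944 and 1.03 in PGCLC_d3, and 1.18 and 1.16 in PGCLC_d3ag3. PGCLC_d3 thus held about as much transcript of the one as of the other. As a share of the summed TPM of the 23 cadherins, Cdh1 went from 96.0 ± 0.103% (SD, n = 2) in ESC and 91.6 ± 0.027% in EpiLC to 41.0 ± 1.62% in PGCLC_d3 and 39.0 ± 0.80% in PGCLC_d3ag3. Cdh3 made up 0.253 ± 0.012% in EpiLC and 40.4 ± 0.820% and 45.7 ± 0.184% in the PGCLC groups. The cadherin sum itself was 497.5 ± 52.1 TPM (SD, n = 2) in ESC, 603.5 ± 48.7 in EpiLC, 252.6 ± 3.25 in PGCLC_d3 and 155 ± 1.76 in PGCLC_d3ag3, so the rise of Cdh3 was smaller in TPM than the loss of Cdh1. Cdh3 and Cdh1 are neighbours in the RefSeq annotation of GRCr8, and reads of one are counted apart from the other only as far as the authors' counting separates the genes.

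Cdh2 encodes N-cadherin, the classical cadherin of mesoderm, neural tissue and migrating cells. Its values were 3.87 and 4.26 TPM in ESC, 0.933 and 0.840 in EpiLC, 12.2 and 13.7 in PGCLC_d3, and 9.50 and 7.76 in PGCLC_d3ag3. ESC lay above EpiLC, and both PGCLC groups lay above ESC without overlap. The fall from ESC to EpiLC was -1.42 (SE 0.136, limma adjusted p = 8.5e-06) and the rise to PGCLC_d3 was 2.88 (SE 0.136, limma adjusted p = 4.9e-08). The decrease to PGCLC_d3ag3 was -0.54 (SE 0.136, limma adjusted p = 0.00541), and it was lost under quantile normalization and without the second PGCLC_d3 library. Cdh2 stayed below Cdh1 in every library, at 0.116 and 0.134 of Cdh1 in the PGCLC_d3 libraries.

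Of the classical type II cadherins, which are best known from the nervous system, Cdh10 and Cdh7 were highest in EpiLC. Cdh10 measured 0.073 and 0 TPM in ESC, 13.5 and 15.4 in EpiLC, 0.518 and 0.620 in PGCLC_d3, and 0.169 and 0.195 in PGCLC_d3ag3. It was high in EpiLC alone, and every other library lay at 0.620 or less. It passed the filter through EpiLC alone, so that it differed there was set by the filter, and its differences are given as a description, 3.90 (SE 0.124) into EpiLC and -3.30 (SE 0.124) out of it. Cdh7 measured 0.091 and 0.083 TPM in ESC, 12.1 and 12.8 in EpiLC, 4.40 and 4.11 in PGCLC_d3, and 3.79 and 2.11 in PGCLC_d3ag3. Its EpiLC libraries were again the highest, but PGCLC_d3 and PGCLC_d3ag3 kept levels of 2.11 to 4.40, above ESC. The change was 3.63 (SE 0.185, limma adjusted p = 1e-07) into EpiLC and -1.36 (SE 0.185, limma adjusted p = 8.8e-05) from there to PGCLC_d3. Its difference between the PGCLC groups was -0.44 (SE 0.185, limma adjusted p = 0.0545) and missed the threshold.

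Cdh24 and Cdh5 completed the named cadherins. Cdh24, a type II cadherin that binds beta-catenin and p120-catenin, was at 12.7 ± 1.69 (SD, n = 2) TPM in ESC, 13.5 ± 1.1 in EpiLC, 19.6 ± 2.67 in PGCLC_d3 and 10.2 ± 1.36 in PGCLC_d3ag3. Its higher level in PGCLC_d3 than in EpiLC (0.50, SE 0.141, limma adjusted p = 0.00882) was lost under both rescalings, whereas the lower level in PGCLC_d3ag3 was -0.88 (SE 0.141, limma adjusted p = 0.00032). Cdh5, the VE-cadherin of endothelium, stayed low, at 0.010 ± 0.014 TPM in ESC, 0.287 ± 0.006 in EpiLC, 1.69 ± 0.028 in PGCLC_d3 and 0.289 ± 0.107 in PGCLC_d3ag3. It passed the filter through PGCLC_d3 alone, and its differences, given as a description, were 1.06 (SE 0.113) to PGCLC_d3 and -1.06 (SE 0.113) from there to PGCLC_d3ag3. Endothelial markers summed to 13.8 and 12.5 TPM over 7 genes in PGCLC_d3, with Emcn at 0 and Tek at 0.046 or less. Plvap was at 1.64 and 0.945 TPM in EpiLC, 4.21 and 4.32 in PGCLC_d3 and 0.851 and 0.983 in PGCLC_d3ag3, and Kdr at 0.041 or less, 0.833 and 0.981, and 0.188 and 0.308. Both were highest in PGCLC_d3, as Cdh5 was. Other markers were not: Tie1 was at 55.5 and 53.2 TPM in ESC and at 0.211 and 0.243 in PGCLC_d3. Egfl7 overlapped between EpiLC, at 7.22 and 6.92, and PGCLC_d3, at 8.20 and 6.46. The sum over the 7 genes was highest in ESC, at 57.2 and 55.1 TPM. The part of endothelial RNA in the Cdh5 value was not tested.

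The remaining 4 tested cadherins, Cdh4, Cdh11, Cdh13 and Cdh22, did not reach a mean of 5 TPM in any group and are named after their values were seen. Cdh22 passed the filter through PGCLC_d3 alone, at 1.28 and 1.26 TPM there and at 0.108 or less elsewhere. Cdh13, an atypical cadherin anchored to the membrane by lipid, was at 4.63 and 2.83 in PGCLC_d3 against 0.131 and 0.134 in PGCLC_d3ag3. Cdh11, a cadherin of mesenchyme, was highest in EpiLC at 2.69 and 6.02. Those EpiLC libraries also had the highest summed level of the 8 fibroblast markers, 44.1 and 82.5 TPM against 3.55 and 6.67 in PGCLC_d3, where Dcn and Lum were at 0. The part of feeder or other fibroblast RNA in Cdh11 was not tested.

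**Figure D3:**
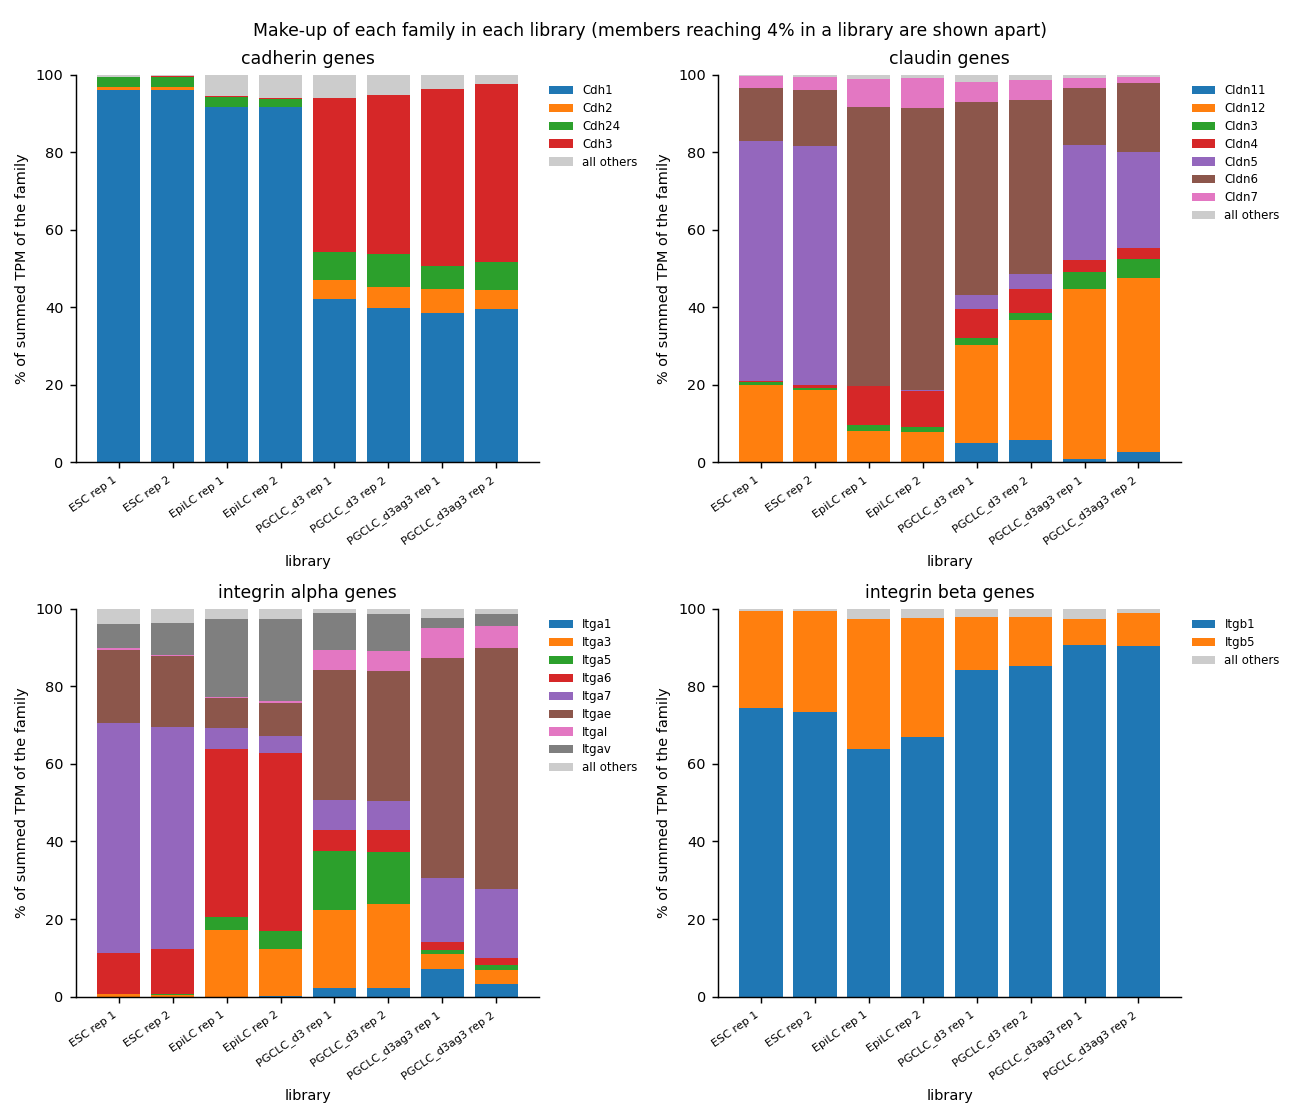
Share of each family's summed TPM held by its members in each of the 8 libraries, as stacked bars from 0 to 100%. Cdh1 gives way to nearly equal parts of Cdh1 and Cdh3 in the PGCLC libraries, Cldn5 gives way to Cldn6 in EpiLC, Itga7 to Itga6, and Itgb1 takes most of the beta subunits throughout.

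The leading claudin differed between the groups. Below are the 250 bases before the start of 4 claudin genes, from the RefSeq promoter table for GRCr8, chosen because their levels moved in opposite directions: Cldn3, Cldn6 and Cldn7 rose from ESC to EpiLC while Cldn5 fell. Capitals mark CACCTG or its reverse complement CAGGTG, the E-box bound by the SNAIL and ZEB repressors, searched on both strands.
Cldn3: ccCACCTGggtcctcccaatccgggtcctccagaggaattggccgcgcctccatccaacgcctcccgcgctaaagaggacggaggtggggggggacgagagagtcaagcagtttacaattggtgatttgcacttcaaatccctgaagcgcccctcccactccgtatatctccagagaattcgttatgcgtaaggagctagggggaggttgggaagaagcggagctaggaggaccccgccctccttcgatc
Cldn6: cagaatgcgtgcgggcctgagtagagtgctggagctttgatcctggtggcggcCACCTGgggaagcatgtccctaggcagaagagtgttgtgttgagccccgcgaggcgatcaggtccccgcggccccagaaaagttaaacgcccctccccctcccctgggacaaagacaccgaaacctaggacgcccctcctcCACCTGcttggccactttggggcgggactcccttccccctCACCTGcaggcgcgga
Cldn7: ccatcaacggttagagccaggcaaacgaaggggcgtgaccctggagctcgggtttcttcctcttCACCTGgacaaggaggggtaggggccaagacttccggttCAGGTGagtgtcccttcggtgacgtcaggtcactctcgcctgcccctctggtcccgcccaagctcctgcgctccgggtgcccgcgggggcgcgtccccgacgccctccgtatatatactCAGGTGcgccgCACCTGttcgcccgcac
Cldn5: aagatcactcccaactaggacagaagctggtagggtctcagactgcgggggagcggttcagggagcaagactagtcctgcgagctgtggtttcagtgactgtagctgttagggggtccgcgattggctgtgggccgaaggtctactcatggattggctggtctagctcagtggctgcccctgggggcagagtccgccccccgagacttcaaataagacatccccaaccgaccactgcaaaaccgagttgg

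These stretches lie at chr12:27346548-27346797 on the minus strand, chr10:13215558-13215807 on the plus strand, chr10:55188420-55188669 on the plus strand and chr11:95718599-95718848 on the minus strand. Cldn3 held 1 match, Cldn6 held 3, Cldn7 held 4 and Cldn5 none. Of all 33469 promoters in that table, 15.9% hold at least 1 match, and of the 51 members with an entry 9 did, or 17.6%. Of the 20 tested members with an entry 6 did, or 30%. The share over the promoters of all tested genes was not counted, so the 30% has no background of its own. Among the 6 tested members with a match, Cldn3, Cldn6, Cldn7 and Itga3 rose into EpiLC and Itgae fell. The other, Itga11, passed the filter through ESC alone, so its fall was set by the filter. Without a match, Cdh7 rose and Cldn5 fell. A link between a match and the direction was not tested. Cldn4 had no entry. All 4 printed stretches held the GC box GGGCGG or its complement, as did 30.5% of all promoters and 60% of the 20 tested members with an entry. GC content was 59.2%, 64.4%, 65.6% and 58.4% in the order printed, beside a median of 51.2%. These are matches of letters in a window. Binding and methylation at these sites are not analysed here, and the expression values were counted on the rn7 build.

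Cldn5 encodes the claudin best known from endothelial tight junctions, and at a pseudocount of 1 it had the largest change among the members. It read 154 and 160.1 TPM in ESC, 0.145 and 0.224 in EpiLC, 9.18 and 8.69 in PGCLC_d3, and 45.7 and 37.7 in PGCLC_d3ag3. ESC stood highest, EpiLC was near 0, and PGCLC_d3 and then PGCLC_d3ag3 rose in between, with no overlap between any groups. The fall from ESC to EpiLC was -7.06 (SE 0.111, limma adjusted p = 8.7e-11). The rises that followed were 3.07 (SE 0.111, limma adjusted p = 8.6e-09) to PGCLC_d3 and 2.10 (SE 0.111, limma adjusted p = 2.7e-07) to PGCLC_d3ag3, and the latter was the largest rise among named members at that step. With a pseudocount of 0.1 in place of 1 the fall was -9.12 and the first rise 5.00, and Cdh3 between PGCLC_d3 and ESC changed more, by 9.23.

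ESC carried another endothelial gene, Tie1, at 55.5 and 53.2 TPM, while Tek and Emcn were at 0 there and Kdr was at 0.045 or less. In PGCLC_d3ag3, where Cldn5 was 45.7 and 37.7, the 7 endothelial markers summed to 3.35 and 4.09 TPM, with Tek and Emcn at 0 and Kdr at 0.308 or less. Most of that sum was Egfl7, at 1.86 and 2.42, and Plvap, at 0.851 and 0.983. The part of endothelial RNA in Cldn5 was not tested.

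Cldn6, a claudin of embryonic epithelia and pluripotent cells, led in EpiLC. Its levels were 33.8 and 37.3 TPM in ESC, 388 and 431 in EpiLC, 127 and 97.0 in PGCLC_d3, and 23.1 and 27.2 in PGCLC_d3ag3. EpiLC was the high group, and PGCLC_d3ag3 the lowest, just under ESC. The rise into EpiLC was 3.49 (SE 0.124, limma adjusted p = 8e-09), the fall to PGCLC_d3 was -1.87 (SE 0.124, limma adjusted p = 5.1e-07) and the next fall was -2.10 (SE 0.124, limma adjusted p = 5.1e-07). Cldn6 was 72.4 ± 0.470% (SD, n = 2) of all claudin TPM in EpiLC, where Cldn5 was 0.032 ± 0.008%. In ESC the order was reversed, with Cldn5 at 61.9 ± 0.084% and Cldn6 at 14.0 ± 0.534%. The ratio of Cldn5 to Cldn6 within a library was 4.54 and 4.29 in ESC, 0.000373 and 0.000521 in EpiLC, 0.0723 and 0.0895 in PGCLC_d3, and 1.97 and 1.38 in PGCLC_d3ag3.

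Cldn4, which together with Cldn3 is a receptor for the Clostridium enterotoxin and lies next to it in the annotation, followed Cldn6. It measured 0.733 and 1.66 TPM in ESC, 53.3 and 55.4 in EpiLC, 19.4 and 13.4 in PGCLC_d3, and 4.88 and 4.14 in PGCLC_d3ag3. EpiLC was the high group and ESC the low one, and PGCLC_d3 lay above PGCLC_d3ag3 in between, without overlap. The change was 4.69 (SE 0.214, limma adjusted p = 4.3e-08) into EpiLC, then -1.69 (SE 0.214, limma adjusted p = 5.2e-05) and -1.64 (SE 0.214, limma adjusted p = 8.3e-05). The first was the largest rise of a named member at that step at a pseudocount of 1, while at 0.1 Cdh10 (6.79) and Cdh7 (6.07) rose more than Cldn4 (5.49). Cldn7, a claudin of many simple epithelia, also peaked in EpiLC but ended below ESC, at 8.0 ± 1.13 (SD, n = 2), 42.6 ± 4.61, 12.2 ± 1.29 and 3.25 ± 0.839 TPM in ESC, EpiLC, PGCLC_d3 and PGCLC_d3ag3. It rose by 2.28 (SE 0.161, limma adjusted p = 1e-06), then changed by -1.73 (SE 0.161, limma adjusted p = 5.6e-06) and -1.64 (SE 0.161, limma adjusted p = 1.3e-05).

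Cldn3 parted from them at the last step. It was at 1.61 ± 0.255 TPM (SD, n = 2) in ESC, 8.35 ± 0.75 in EpiLC, 4.00 ± 0.619 in PGCLC_d3 and 7.34 ± 0.412 in PGCLC_d3ag3. After a rise of 1.84 (SE 0.143, limma adjusted p = 1.9e-06) and a fall of -0.90 (SE 0.143, limma adjusted p = 0.00024), it rose in PGCLC_d3ag3 by 0.74 (SE 0.143, limma adjusted p = 0.00108). Its values there were close to those of EpiLC.

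Cldn11 makes the tight junctions of Sertoli cells and of myelin. It measured 0.065 and 0.095 TPM in ESC, 0.892 and 0.433 in EpiLC, 12.6 and 12.3 in PGCLC_d3, and 1.31 and 3.95 in PGCLC_d3ag3. PGCLC_d3 was the high group, and the PGCLC_d3ag3 libraries lay apart from each other, both above EpiLC. The rise to PGCLC_d3 was 3.03 (SE 0.292, limma adjusted p = 7.3e-06) and the fall after it -1.99 (SE 0.292, limma adjusted p = 0.00019). The summed level of the 10 gonadal somatic markers was 13.3 and 12.3 TPM in PGCLC_d3 and 14.9 and 18.7 in PGCLC_d3ag3, while Cldn11 was lower in the latter. That sum hides opposite movements of single markers. Wt1 was at 0.061 or less in PGCLC_d3 and at 1.28 and 1.17 in PGCLC_d3ag3, and Gata4 at 2.66 and 2.55, then 4.70 and 5.12. Amh, Foxl2, Nr5a1 and Rspo1 were also higher in PGCLC_d3ag3. Star fell from at least 3.12 to 0.551 and 0.741, Sox9 was lower too, and Fst and Nr2f2 overlapped. The part of gonadal somatic RNA in any member's value was not tested.

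Cldn12, a claudin without the usual PDZ-binding tail, varied little. Its means were 49.0 ± 0.833 TPM (SD, n = 2) in ESC, 44.1 ± 2.48 in EpiLC, 66.0 ± 2.1 in PGCLC_d3 and 68.3 ± 0.544 in PGCLC_d3ag3. The change to PGCLC_d3 was 0.57 (SE 0.066, limma adjusted p = 2.7e-05), and between the PGCLC groups it was 0.05 (SE 0.066, limma adjusted p = 0.517), a difference that was called higher under both rescalings. Cldn12 came to 44.4 ± 0.859% of claudin TPM in PGCLC_d3ag3, from 7.81 ± 0.086% in EpiLC. The claudin sum was 253.5 ± 7.97 TPM (SD, n = 2) in ESC, 565.5 ± 38.0 in EpiLC, 235.8 ± 26.8 in PGCLC_d3 and 154 ± 1.76 in PGCLC_d3ag3. Of the 9 tested claudins, Cldn2 and Cldn9 stayed below a mean of 5 TPM and are named after their values were seen. Cldn2, which forms cation pores, passed through EpiLC alone, at 1.11 and 1.66 TPM. Cldn9, the neighbour of Cldn6, was highest in PGCLC_d3 at 3.17 and 1.39.

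**Figure D4:**
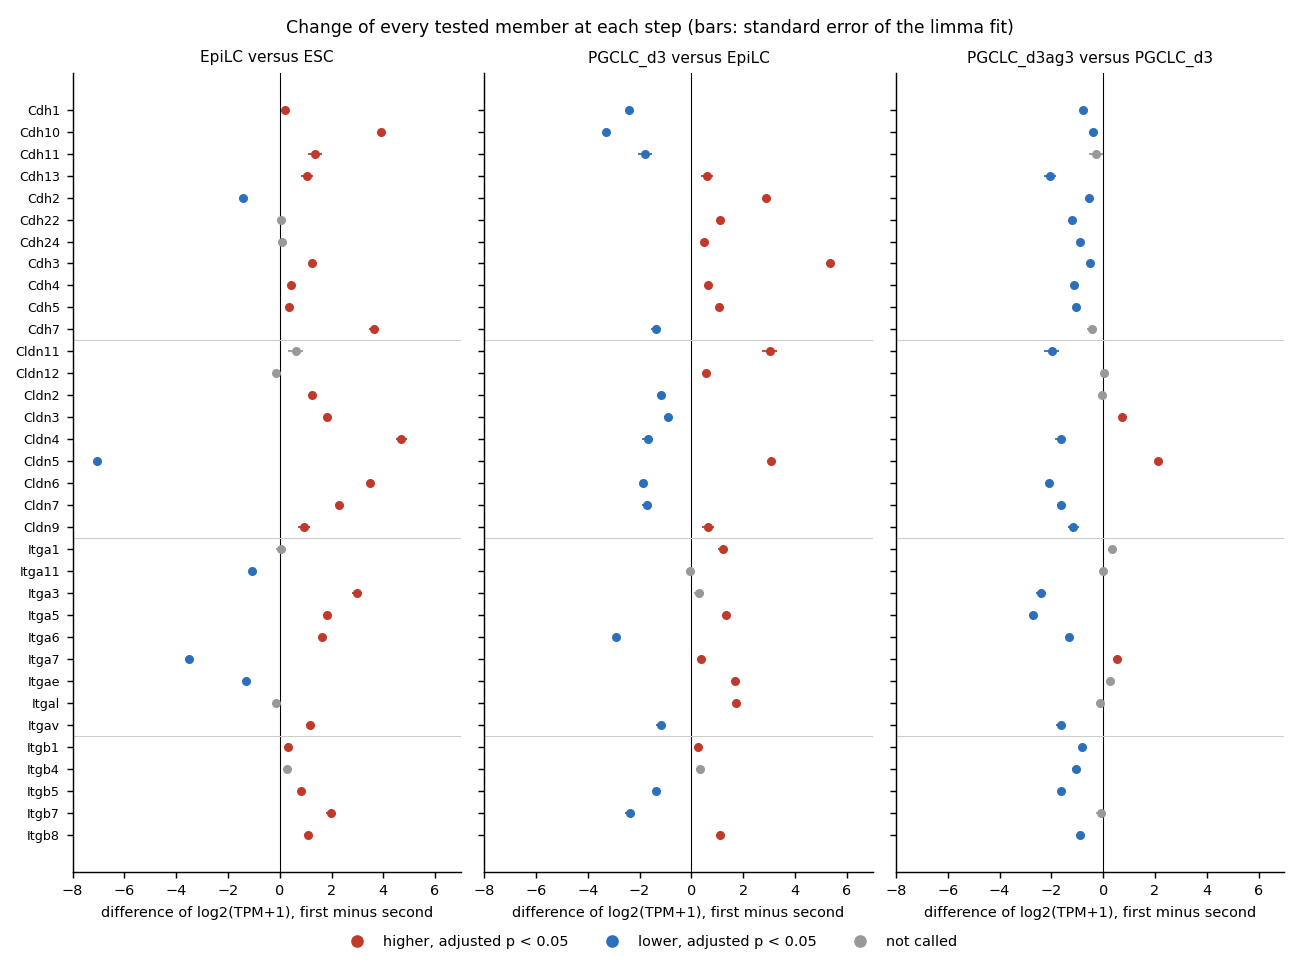
Difference of log2(TPM+1) at each step (horizontal axis, first group minus second) for each of the 34 tested members (rows), with bars for the standard error of the limma fit, and red and blue for members called higher and lower. The claudins and cadherins of EpiLC lie to the right in the first panel and to the left in the second, and most members lie left of 0 in the panel for PGCLC_d3ag3 against PGCLC_d3.

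The integrin alpha subunits that bind laminin differed in which one led. Itga7, the laminin receptor subunit of muscle, led in ESC. It measured 49.0 and 50.3 TPM in ESC, 4.02 and 2.97 in EpiLC, 4.65 and 4.78 in PGCLC_d3, and 6.57 and 8.08 in PGCLC_d3ag3. ESC stood far above all others, whose libraries ran from 2.97 to 8.08. The fall into EpiLC was -3.50 (SE 0.141, limma adjusted p = 1.9e-08). The small rise to PGCLC_d3 (0.36, SE 0.141, limma adjusted p = 0.0432) was lost in most alternatives, both rescalings included, and a rise to PGCLC_d3ag3 was 0.54 (SE 0.141, limma adjusted p = 0.00681).

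Itga6 forms laminin receptors with beta 1 or beta 4 and is a surface marker of stem cells and germ cells. Its levels were 8.77 and 10.4 TPM in ESC, 32.5 and 31.1 in EpiLC, 3.27 and 3.52 in PGCLC_d3, and 0.763 and 0.739 in PGCLC_d3ag3. EpiLC was highest, ESC next, PGCLC_d3 lower and PGCLC_d3ag3 lowest, with no overlap. The rise into EpiLC was 1.64 (SE 0.123, limma adjusted p = 1.5e-06), and the falls after it were -2.90 (SE 0.123, limma adjusted p = 2.4e-08) to PGCLC_d3 and -1.33 (SE 0.123, limma adjusted p = 8.8e-06) to PGCLC_d3ag3. Itga7 over Itga6 within a library was 5.59 and 4.86 in ESC, 0.123 and 0.0955 in EpiLC, 1.42 and 1.36 in PGCLC_d3, and 8.61 and 10.9 in PGCLC_d3ag3.

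Itga3, whose product binds laminin-332 and laminin-511, was the third. It measured 0.475 and 0.365 TPM in ESC, 12.8 and 8.20 in EpiLC, 12.1 and 13.5 in PGCLC_d3, and 1.58 and 1.66 in PGCLC_d3ag3. EpiLC and PGCLC_d3 overlapped and were high, and ESC and PGCLC_d3ag3 were low. The rise into EpiLC was 2.99 (SE 0.182, limma adjusted p = 3.5e-07), and the fall from PGCLC_d3 to PGCLC_d3ag3 was -2.40 (SE 0.182, limma adjusted p = 2.5e-06). Between EpiLC and PGCLC_d3 the change was 0.29 (SE 0.182, limma adjusted p = 0.172).

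Receptors for the RGD sequence of fibronectin and vitronectin were lowest in PGCLC_d3ag3 or ESC. Itga5, the main fibronectin receptor subunit, read 0.048 and 0.173 TPM in ESC, 2.61 and 3.22 in EpiLC, 9.30 and 8.41 in PGCLC_d3, and 0.381 and 0.618 in PGCLC_d3ag3. Its libraries climbed from ESC through EpiLC to PGCLC_d3 without overlap and dropped below 1 in PGCLC_d3ag3. That fall, -2.72 (SE 0.144, limma adjusted p = 2.7e-07), was the largest of any named member at the last step. The rises before it were 1.82 (SE 0.144, limma adjusted p = 2.3e-06) and 1.34 (SE 0.144, limma adjusted p = 1.6e-05). Itgav, the alpha subunit of vitronectin receptors, read 4.97 and 7.07 TPM in ESC, 15.0 and 14.3 in EpiLC, 5.73 and 6.05 in PGCLC_d3, and 0.957 and 1.48 in PGCLC_d3ag3. EpiLC was high, ESC and PGCLC_d3 overlapped, and PGCLC_d3ag3 was lowest. Its changes were 1.18 (SE 0.171, limma adjusted p = 0.00017), -1.19 (SE 0.171, limma adjusted p = 0.00013) and -1.64 (SE 0.171, limma adjusted p = 1.9e-05) at the 3 steps.

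Itgae encodes alpha E, which in lymphocytes pairs with beta 7 to bind E-cadherin. Its levels were 15.54 and 16.1 TPM in ESC, 5.89 and 5.66 in EpiLC, 20.3 and 20.9 in PGCLC_d3, and 22.4 and 27.8 in PGCLC_d3ag3. It was lowest in EpiLC and highest in PGCLC_d3ag3, with no overlap between groups. The fall into EpiLC was -1.31 (SE 0.113, limma adjusted p = 4.2e-06) and the rise to PGCLC_d3 was 1.67 (SE 0.113, limma adjusted p = 5.9e-07). The difference between PGCLC groups was 0.27 (SE 0.113, limma adjusted p = 0.0578), called higher under both rescalings. In PGCLC_d3ag3 it made up 59.3 ± 3.78% (SD, n = 2) of all integrin alpha TPM, from 8.10 ± 0.363% in EpiLC. The blood markers Ptprc and Tyrobp were at 0 in ESC and PGCLC_d3, and the highest value of either in PGCLC_d3ag3 was 0.184 TPM, while the globin gene Hbb was at 4.81 and 11.3 there. The part of blood cell RNA in Itgae was not tested.

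The platelet subunit Itga2b did not pass the filter, with no library above 0.612 TPM. The other tested alpha subunits, Itga1, Itga11 and Itgal, stayed below a mean of 5 TPM and are named after their values were seen. Itga11, a collagen receptor subunit, was at 1.25 and 1.23 TPM in ESC and at 0.056 or less elsewhere. Itga1, another collagen receptor subunit, was at 1.37 and 1.35 in PGCLC_d3 and 2.82 and 1.4 in PGCLC_d3ag3, and at 0.044 or less in ESC and EpiLC. Itgal, the leukocyte alpha L, was at 2.55 to 3.28 in the PGCLC libraries and at 0.446 or less before. Its known partner Itgb2 did not pass the filter, with a highest value of 1.02 TPM in PGCLC_d3ag3. The summed integrin alpha level, which was not tested, was 85.3 ± 3.92 TPM (SD, n = 2) in ESC, 71.4 ± 5.17 in EpiLC, 61.5 ± 1.43 in PGCLC_d3 and 42.3 ± 3.78 in PGCLC_d3ag3.

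Beta subunits were led by Itgb1, the partner of most alpha subunits, in every library. Its means were 156 ± 4.76 TPM (SD, n = 2) in ESC, 196 ± 0.581 in EpiLC, 235 ± 11.6 in PGCLC_d3 and 134 ± 5.43 in PGCLC_d3ag3. The rise into EpiLC was 0.33 (SE 0.057, limma adjusted p = 0.00054) and the fall in PGCLC_d3ag3 was -0.81 (SE 0.057, limma adjusted p = 1.6e-06). The rise of 0.26 (SE 0.057, limma adjusted p = 0.00236) to PGCLC_d3 became -0.01 under the median-of-ratios rescaling. Itgb5, which pairs with alpha v to bind vitronectin, was at 54.0 ± 4.06, 96.2 ± 8.80, 36.5 ± 0.147 and 11.1 ± 1.57 TPM in ESC, EpiLC, PGCLC_d3 and PGCLC_d3ag3. It rose and fell with its partner Itgav, changing by 0.82 (SE 0.104, limma adjusted p = 6.7e-05), -1.37 (SE 0.104, limma adjusted p = 1.3e-06) and -1.63 (SE 0.104, limma adjusted p = 8e-07). Itgb1 held 65.5 ± 2.18% of beta TPM in EpiLC and 90.6 ± 0.281% in PGCLC_d3ag3, as the share of Itgb5 went from 32.0 ± 1.96% to 7.55 ± 1.34%.

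Itgb7, the partner of alpha E and alpha 4 in lymphocytes, was also highest in EpiLC. It measured 0.754 and 0.386 TPM in ESC, 5.81 and 4.39 in EpiLC, 0.086 and 0.232 in PGCLC_d3, and 0.174 and 0 in PGCLC_d3ag3. EpiLC was the high group, and every other library lay at 0.754 or less. It too passed the filter through EpiLC alone, and its differences, given as a description, were 1.96 (SE 0.169) into EpiLC and -2.39 (SE 0.169) out of it. Itgae thus stood at its lowest where Itgb7 stood at its highest. Itgb4, the hemidesmosome subunit that pairs with alpha 6, stayed low, at 0.457 ± 0.031 TPM in ESC, 0.797 ± 0.295 in EpiLC, 1.24 ± 0.170 in PGCLC_d3 and 0.084 ± 0.030 in PGCLC_d3ag3. It reached 1 TPM only in PGCLC_d3 (1.12 and 1.36) and the first EpiLC library (1.01), and would not have passed the filter without PGCLC_d3. Its difference at the last step, given as a description, was -1.05 (SE 0.138). Itgb3 did not pass the filter, with a highest value of 0.830 TPM. Itgb8, which activates TGF-beta with alpha v and is named after its values were seen, was highest in PGCLC_d3 at 3.8 and 3.44 TPM.

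PGCLC_d3 was also compared with ESC, the cells the culture series began with. Of the 34 tested members, 24 were called higher in PGCLC_d3 (background 49.6%) and 7 lower (background 27.4%), or 20 and 7 under the median of ratios. Members that passed the filter through PGCLC_d3 or ESC alone are inside these counts. The share called higher among all called genes moved from 64.4% to 49.8% under that rescaling. The median change was 0.78 for the members and 0.25 for all tested genes. Cdh3 showed the largest rise, 6.59 (SE 0.099, limma adjusted p = 4.2e-11), and Cldn5 and Itga7 the largest falls, -3.99 (SE 0.111, limma adjusted p = 1.2e-09) and -3.15 (SE 0.141, limma adjusted p = 2.4e-08). Itgav showed -0.01 (SE 0.171, limma adjusted p = 0.958) and was not called. Higher values of Cldn12, Cldn7, Itgae and Cdh24 in PGCLC_d3 than in ESC were lost under the median of ratios.

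The inner partners of these proteins were read from lists chosen by role, and their counts and medians stand beside the shares and medians of all tested genes given above for the same steps. Those shares were 35.4% higher and 31.8% lower into EpiLC, 47.3% and 27.6% to PGCLC_d3, and 25.7% and 44.8% to PGCLC_d3ag3. All lists were counted on the deposited values only, not under the rescalings. Of 15 adherens junction partners 13 were tested: 9 were higher and 2 lower (median log2 change 0.46) from ESC to EpiLC, 3 were higher and 8 lower (median log2 change -0.43) from EpiLC to PGCLC_d3, and 2 were higher and 9 lower (median log2 change -0.65) from PGCLC_d3 to PGCLC_d3ag3. Vcl (37.1 to 119), which encodes vinculin, and Arvcf (12.0 to 39.8), a p120-family catenin, rose to PGCLC_d3 in mean TPM, while Nectin4 (11.5 to 1.43) and p120-catenin itself, Ctnnd1 (105 to 43.2), fell. Ctnnd1, which holds classical cadherins at the surface, fell again to 19.2 TPM in PGCLC_d3ag3. Of 9 desmosome genes 6 were tested: 4 were higher and 1 lower (median log2 change 1.34) into EpiLC, 3 were higher and 2 lower (median log2 change 0.14) to PGCLC_d3 and 4 were lower and 2 not called (median log2 change -0.85) to PGCLC_d3ag3. At the middle step, Perp (26.7 to 183) and Pkp2 (5.29 to 37.7) rose in mean TPM while Dsc2 (22.9 to 8.68), a desmosomal cadherin, fell.

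All 17 tight junction partners were tested: 12 were higher and 3 lower (median log2 change 0.85) into EpiLC, 5 were higher and 9 lower (median log2 change -0.36) to PGCLC_d3 and 13 were lower and 4 not called (median log2 change -0.73) to PGCLC_d3ag3. The scaffold Cgn (0.574 to 23.3) rose in mean TPM and Jam2 (78.1 to 8.73), a junctional adhesion molecule, fell into EpiLC. To PGCLC_d3, the scaffolds Mpdz (5.73 to 19.9) and Tjp3 (17.1 to 53.8) rose, and Marveld3 (5.04 to 0.433), a tight junction membrane protein, and the polarity scaffold Pard3 (25.6 to 5.39) fell. At the last step Patj (19.1 to 3.34), a polarity scaffold, and Cxadr (16.7 to 2.94), a junction receptor, fell. Of 20 integrin partners 18 were tested: 10 were higher and 7 lower (median log2 change 0.79) into EpiLC, 9 were higher and 4 lower (median log2 change 0.12) to PGCLC_d3 and 4 were higher and 12 lower (median log2 change -0.50) to PGCLC_d3ag3. The tetraspanin Cd9 (845 to 97.4) fell into EpiLC in mean TPM, and the actin linker Parvb (19.1 to 91.4) rose there. To PGCLC_d3, paxillin (Pxn, 14.1 to 75.3) rose and Parvb (91.4 to 9.76) fell.

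Matrix ligands of integrins moved too. Of 16, 13 were tested: 5 were higher and 7 lower (median log2 change -0.49) into EpiLC, 7 were higher and 5 lower (median log2 change 0.44) to PGCLC_d3 and 1 was higher and 8 lower (median log2 change -0.78) to PGCLC_d3ag3. The laminin chain gene Lama1 (106 to 0.616) fell in mean TPM from ESC to EpiLC, the step at which Itga7 fell and Itga6 and Itga3 rose. Nephronectin (Npnt, 2.46 to 115), a ligand of alpha 8 beta 1, rose to PGCLC_d3, and Itga8 did not pass the filter. Tenascin C (Tnc, 23.7 to 0.086) and Lamb1 (21.3 to 2.57) fell to PGCLC_d3ag3.

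Of 18 epithelial-mesenchymal regulators 14 were tested: 4 were higher and 6 lower (median log2 change -0.22) into EpiLC, 7 were higher and 5 lower (median log2 change 0.24) to PGCLC_d3 and 5 were higher and 7 lower (median log2 change -0.29) to PGCLC_d3ag3. The list holds factors that act in either direction, so its counts have no single sense. The epithelial splicing factor Esrp1 (0.228 to 54.1) rose into EpiLC in mean TPM while its relative Esrp2 (63.6 to 12.8) fell. The epithelial factors Grhl2 (30.2 to 2.30) and Ovol2 (22.2 to 3.93) fell to PGCLC_d3, where Snai2 (0.623 to 7.22), a repressor of Cdh1 in other cells, rose. The epithelial factor Elf3 (3.20 to 28.0) also rose at that step, and Esrp1, Esrp2 and Klf5 stood at 108, 36.0 and 33.5 TPM in PGCLC_d3 against 54.1, 12.8 and 9.31 in EpiLC, so epithelial factors lay on both sides. Cdh1 fell and Cdh3 and Cdh2 rose at the same step. Whether Snai2 or any other factor of the list acted on these cadherins was not tested.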

How the data were processed

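Per the labels' protocols, RNA was isolated with PicoPure, amplified with SMART-Seq v4 and turned into libraries with KAPA Hyper Prep. The submitters' processing notes name bcl2fastq 2.20, cutadapt 1.1.6, HISAT2 2.1.0, Subread 1.6.5 with its featureCounts, and the rat build rn7. The deposited values are log2(TPM+1) per gene and library, made by the authors; how they set gene length, strand and multi-mapping reads is not given in the sources used here. Reads of the mouse feeder cells could map to rat genes, and paralogs could share reads.

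The 11066 rows without a gene name were left out. Groups and replicate numbers come from the sample labels. Values were turned back to TPM for printing, and limma 3.58.1 in R 4.3.3 (lmFit, eBayes with trend, 2-sided) was run on the deposited log2 values of the 13571 genes reaching 1 TPM in 2 or more libraries. One model held all 4 groups, leaving 4 residual degrees of freedom and a median residual SD of 0.104, and the fit was tested on simulated data. Sums, shares and ratios within a library were computed from TPM. Depth is relative, since TPM keeps no read totals: of the low values 88.3% to 97.4% were whole reads within 0.06.

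Members were named if a group mean reached 5 TPM or if they were among 16 genes listed by role. Values in every library are given for up to 5 rises and 5 falls per consecutive step among named members called and changed by at least 1 on the log2 scale. The members and lists were chosen with earlier results of these data known. Alternatives were a median-of-ratios rescaling, quantile normalization, a pseudocount of 0.1, no filter, a filter at TPM 5, the replicate number as a block and leaving out each library. Promoter sequences and gene order come from RefSeq tables for GRCr8, matched by symbol for 51 of 72 members. No coordinates are given for rn7.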

Additional observations from a re-analysis of the deposited data

How the results depend on the processing

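Of the comparisons of single named members under alternatives, 1264 kept direction and side of the threshold, 45 lost the call, 17 gained one and 6 changed sign. Rescaling by the median of ratios and quantile normalization each gave 6 members higher, in place of 3, for PGCLC_d3ag3 against PGCLC_d3. A filter at TPM 5, under which fewer genes are tested, gave 14 higher for EpiLC against ESC, 10 higher for PGCLC_d3 against EpiLC, 15 higher for PGCLC_d3 against ESC and 21 in the F test over the 4 groups. The other counts, under these and the remaining alternatives, stayed within 1.5 times.

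Leaving out 1 library at a time gave 20 to 23 higher and 5 to 6 lower for EpiLC against ESC, 15 to 18 higher and 13 lower for PGCLC_d3 against EpiLC, 3 to 4 higher and 20 to 23 lower for PGCLC_d3ag3 against PGCLC_d3, and 22 to 24 higher and 6 to 7 lower for PGCLC_d3 against ESC. With 1 library left in a group, that library is assumed to vary like the other groups.

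The changes of sign were Itgb1 for PGCLC_d3 against EpiLC under the median of ratios (-0.01), Itga3 there under quantile normalization (-0.06), Cdh24 for EpiLC against ESC without ESC replicate 1 (-0.04; range without single libraries -0.04 to 0.22), Itgav for PGCLC_d3 against ESC without ESC replicate 2 (0.21) or PGCLC_d3 replicate 1 (0.02; range -0.23 to 0.21), and Itgb7 for PGCLC_d3ag3 against PGCLC_d3 without PGCLC_d3ag3 replicate 2 (0.02; range -0.21 to 0.02). The cause was not tested. A pseudocount of 0.1 enlarged changes of low genes, such as Cdh10 from ESC to EpiLC (3.90 to 6.79).

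Same-numbered libraries did not deviate together (correlations of deviations -0.037 to 0.066 over the 6 pairs of groups), so the numbers are taken as names. With the replicate block the member counts were 22 and 5, 16 and 13, 3 and 22, and 24 and 7, higher and lower in the order above, and 34 in the F test. Among named members, Itga7 for PGCLC_d3 against EpiLC lost its call (adjusted p = 0.0557, limma with the replicate block). Members at the lowest levels are limited by depth, which is not known in reads.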
